A study of Rattus norvegicus with 3 samples.

Results

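Solute carriers are the membrane proteins that move amino acids, sugars, nucleosides, metals, inorganic ions, vitamins and organic acids across the plasma membrane and the membranes of organelles. Their messenger RNAs were examined in cultured ventricular myocytes of newborn rats. The genes were chosen by symbol alone: each had a platform symbol of the form Slc, a family number, the letter a and a member number, or a symbol beginning with Slco. Slc2a1, Slc2a4, Slc8a1, Slc16a3 and Slc27a1 were left out. A gene with several probe sets, which are the groups of short oligonucleotides that measure 1 transcript on an Affymetrix array, was represented by the one with the highest mean over the arrays. This gave 222 solute carrier genes of 10411 genes on the array, and 278 of the 12783 probe sets with 1 symbol. All 222 symbols were the same in a current rat gene table. They were sorted by substrate into 11 classes.

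The series had 3 arrays of total RNA, 1 for each condition, and each culture was kept for 48 h. The cells of the first were treated with 1 µM PAMH, a compound that the labels name only by this abbreviation, beside the keywords hypertrophy, 5-hydroxytryptamine and pyridine. The cells of the second were treated with 20 µM phenylephrine, which activates α1-adrenergic receptors and is a standard agent for enlarging cultured cardiac myocytes. The third culture was unstimulated. With no replicate in any condition, no difference below has a replicate check, a standard deviation or a p-value, and the doses of the compounds differed. The labels name no genotype, strain, vehicle or medium.

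Deposited intensities were scaled to a common median, and a level below is a scaled intensity in arbitrary units. Levels of different genes are not comparable, because each probe set binds with its own strength. The floor of detection was an intensity of 76.0, and a ratio was formed only where both arrays reached it. A gene counted as higher or lower at 1.5-fold, a log2 ratio of 0.585 in either direction. As a yardstick of measurement error, probe sets of the same gene differed in their log2 ratio with an SD of 0.29 for PAMH against unstimulated, 0.27 for phenylephrine against unstimulated and 0.23 for PAMH against phenylephrine. These SDs, over 868, 864 and 866 genes, hold no variation between cultures.

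All 7 cardiac myocyte markers on the array were above the floor on all 3 arrays, and 2 of 7 were higher with PAMH and 1 of 7 with phenylephrine. Their summed intensity was 77157 with PAMH, 64456 with phenylephrine and 50905 in unstimulated cells, of which Nppa had 19611 with PAMH, 17006 with phenylephrine and 7524 in unstimulated cells. Their median log2 ratio was 0.30 with PAMH and -0.02 with phenylephrine, and with phenylephrine Myh6, Tnni3, Ryr2 and Pln lay slightly below 0. The marker lists were not run under other scalings of the arrays. Several of these markers are very bright, and the direction of the similarly bright Slc25a4 depended on the scaling, as given below. Of the fibroblast markers, 7 of 8 were above the floor on all 3 arrays, 5 of those 7 were lower with PAMH and 1 of 7 was lower with phenylephrine, with sums of 8849 with PAMH, 10512 with phenylephrine and 12327 in unstimulated cells. All 5 smooth muscle markers were above the floor, 3 higher and 1 lower with PAMH and 4 higher with phenylephrine, with sums of 9658 with PAMH, 11728 with phenylephrine and 5373 in unstimulated cells. Among all genes measured, 9.33% were higher and 4.17% lower with PAMH, and 8.91% higher and 4.55% lower with phenylephrine. None of the 4 endothelial markers, 1 of 5 macrophage markers (Aif1) and none of 3 nerve markers was above the floor on all arrays. Their part in the results below was not tested. As a sign of RNA length, the intensity of the 3′ control of actin over its 5′ control was 1.54 with PAMH, 1.44 with phenylephrine and 1.72 in unstimulated cells, and the same ratio for Gapdh was 1.01 with PAMH, 1.07 with phenylephrine and 1.04 in unstimulated cells.

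Of the 222 solute carrier genes, 106 were above the floor on all 3 arrays, 10 on 2 arrays, 17 on 1 array and 89 on none. The share above it on all 3 was 47.7%, against 61.5% of all genes on the array. The classes differed in how many were detected. Of the carriers of metals, 21 of 25 were above the floor on all arrays, and of the mitochondrial carriers 19 of 30. The figures were 15 of 32 for amino acids, 14 of 34 for inorganic ions and pH, 10 of 21 for sugars, monocarboxylates and fatty acids, and 7 of 13 for vitamins, choline and acetyl-CoA. Of the carriers of organic anions, cations and drugs, many of which are known from liver and kidney, 9 of 33 were above it, and of the carriers of neurotransmitters and osmolytes 4 of 16. The small classes had 1 of 6 for nucleosides, 2 of 3 for nucleotide sugars and 4 of 9 for other carriers. A gene below the floor had no level that these arrays could measure, which does not show that it was silent.

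With PAMH, 8 of 110 measured solute carriers were at least 1.5-fold higher than in unstimulated cells (7.27%) and 8 were lower (7.27%). Over all 6552 genes measured, 9.33% were higher and 4.17% lower. With phenylephrine, 11 of 110 were higher (10%) and 7 lower (6.36%), where 8.91% of 6576 genes were higher and 4.55% lower. The shares higher were thus near the background with either compound, and the shares lower were a few genes above it. Without scaling, 5 were higher and 15 lower with PAMH, and 7 higher and 12 lower with phenylephrine. Scaling on percentile 75, quantile normalization and cyclic loess gave 7 higher and 10 lower, 5 and 9, and 5 and 8 with PAMH. No share over all genes is given for these other scalings, so their counts have no background beside them. All genes moved too: without scaling their median log2 ratio was -0.05 with PAMH and -0.05 with phenylephrine. The median log2 ratio of the measured solute carriers was 0.13 with PAMH and 0.10 with phenylephrine, where the median of all genes was 0.10 with PAMH and 0.07 with phenylephrine. The sign of the solute carrier medians rests on the scaling, since without scaling they were -0.01 with PAMH and -0.03 with phenylephrine, and after quantile normalization 0.05 with PAMH and 0.00 with phenylephrine. At 2-fold, 2 solute carriers were higher and 1 lower with PAMH (2.06% and 0.794% of all genes), and 1 was higher and 1 lower with phenylephrine (2.63% and 0.76%). Both comparisons use the same unstimulated array, so any deviation of that array enters both sets of ratios. A lower level on an array cannot tell fewer cells of a type from less RNA per cell.

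**Figure D1:**
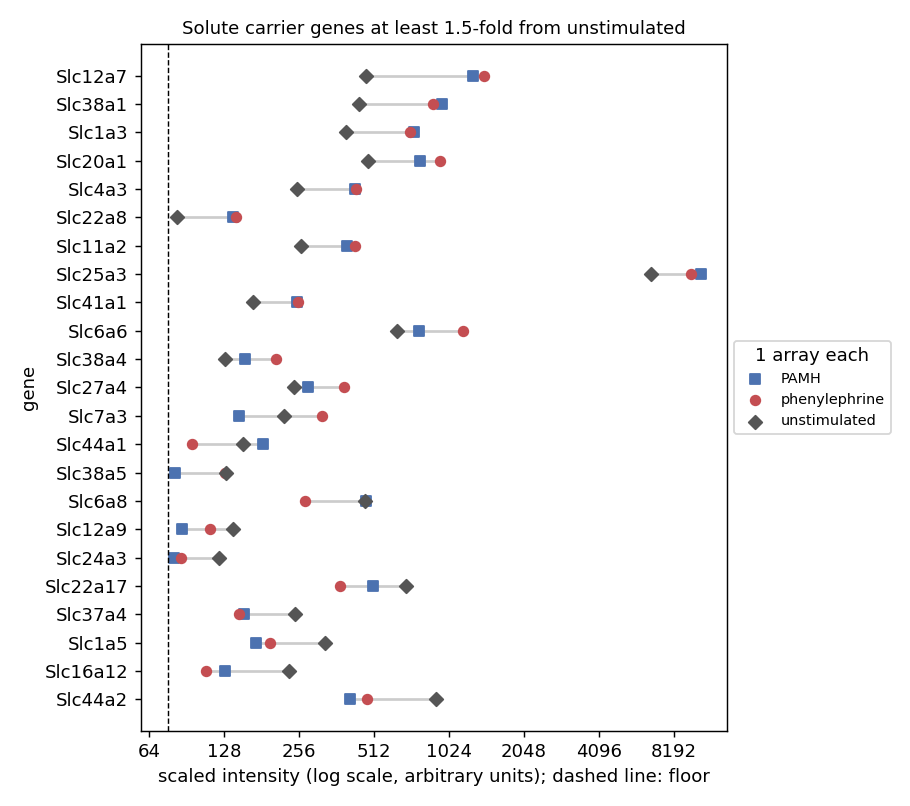
Scaled intensity (log scale, arbitrary units) of the 23 solute carrier genes at least 1.5-fold from unstimulated cells with either compound, 1 array per condition, with the floor as a dashed line. Slc12a7 is at the top with PAMH and phenylephrine right of unstimulated, Slc44a2 is at the bottom with both left of it, and the markers of Slc6a8 and Slc44a1 for the compounds lie apart.

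The potassium-chloride cotransporter Slc12a7, which lets potassium and chloride leave the cell and so lowers its volume, was the solute carrier furthest above unstimulated cells in both comparisons. Its intensity was 1279 with PAMH, 1411 with phenylephrine and 476 in unstimulated cells, which was 2.69-fold higher with PAMH and 2.96-fold higher with phenylephrine. Slc38a1, which brings glutamine and other small neutral amino acids in with sodium, came next with an intensity of 962 with PAMH, 883 with phenylephrine and 447 in unstimulated cells, 2.15-fold higher with PAMH and 1.97-fold higher with phenylephrine. Both treated arrays lay well apart from the unstimulated array for these genes. A second probe set of Slc38a1 had log2 ratios of 0.77 with PAMH and 0.50 with phenylephrine. A choline carrier and a creatine carrier were furthest in the other direction when genes were ranked by the smaller in size of their log2 ratios with PAMH and phenylephrine, although Slc1a5 lay below the creatine carrier with PAMH. Slc44a2, a choline transporter of the plasma membrane and mitochondria, had an intensity of 410.3 with PAMH, 479 with phenylephrine and 910.5 in unstimulated cells, 2.22-fold lower with PAMH and 1.9-fold lower with phenylephrine. Slc16a12, known to let creatine out of cells, had 129.6 with PAMH, 109 with phenylephrine and 233 in unstimulated cells (1.8-fold lower with PAMH and 2.14-fold lower with phenylephrine), and a second probe set had log2 ratios of -0.53 with PAMH and -0.62 with phenylephrine. All 4 of these genes stayed at least 1.5-fold from unstimulated, in the same direction, under all the processing alternatives in which they were measured.

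The 250 bases before the start of these 4 genes are shown because these members lay furthest from unstimulated cells in each direction by the smaller in size of their log2 ratios with PAMH and phenylephrine. They are RefSeq sequences on build GRCr8, written 5′ to 3′ along the gene's own strand, with matches to the motifs searched in capitals.
Slc12a7, chr1:31354626-31354875, minus strand: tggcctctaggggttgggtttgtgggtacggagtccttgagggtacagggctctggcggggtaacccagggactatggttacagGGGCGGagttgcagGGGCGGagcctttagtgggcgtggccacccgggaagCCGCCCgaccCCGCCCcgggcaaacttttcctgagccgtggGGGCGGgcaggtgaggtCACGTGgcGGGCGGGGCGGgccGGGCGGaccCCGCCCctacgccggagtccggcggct
Slc38a1, chr7:129681402-129681651, minus strand: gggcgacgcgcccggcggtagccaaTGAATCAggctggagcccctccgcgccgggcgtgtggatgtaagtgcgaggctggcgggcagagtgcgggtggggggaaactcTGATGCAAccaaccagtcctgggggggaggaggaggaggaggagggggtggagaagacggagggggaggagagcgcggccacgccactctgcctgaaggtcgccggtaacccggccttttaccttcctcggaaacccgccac
Slc44a2, chr8:28164122-28164371, plus strand: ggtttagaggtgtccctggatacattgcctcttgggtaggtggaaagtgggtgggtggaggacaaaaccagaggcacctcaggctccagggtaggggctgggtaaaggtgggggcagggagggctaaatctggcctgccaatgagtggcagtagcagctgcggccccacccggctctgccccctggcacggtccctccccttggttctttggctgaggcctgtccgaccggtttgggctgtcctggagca
Slc16a12, chr1:241621717-241621966, minus strand: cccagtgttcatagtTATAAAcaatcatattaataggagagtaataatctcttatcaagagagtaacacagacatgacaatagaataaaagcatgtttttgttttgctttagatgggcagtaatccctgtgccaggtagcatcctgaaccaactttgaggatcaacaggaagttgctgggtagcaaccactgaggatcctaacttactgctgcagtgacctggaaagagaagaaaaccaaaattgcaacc

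The motifs were searched on both strands: the GC box GGGCGG, the E-box CACGTG, the AP-1 site TGANTCA, the cyclic AMP response element TGACGTCA, the C/EBP-ATF element TGATGNAA, TATAAA, and the CArG box by name. The Slc12a7 window was 71.6% G and C, with 23 CpG pairs, 9 GC boxes (of which the pair at 50 to 45 and 45 to 40 bases before the start share a base) and 1 E-box at 58 to 53. In Slc38a1, 68.4% G and C, there was an AP-1 match 225 to 219 bases before the start and a C/EBP-ATF match at 142 to 135, the kind of element known from genes that respond to amino acid shortage. The Slc44a2 window (62.8%, 5 CpG pairs) held none of these motifs, and that of Slc16a12 (39.6%, no CpG pair) held TATAAA at 235 to 230, upstream of where a working TATA box lies. Across 33469 promoters of the same length, the share with a GC box was 30.5%, with an E-box 5.59%, with an AP-1 match 6.34%, with a C/EBP-ATF match 3.40%, with TATAAA 12.9%, with the cyclic AMP element 1.59% and with a CArG box 1.5%. Over the 205 solute carrier promoters found, 50.2% held a GC box, 12.2% an E-box, 6.83% an AP-1 match, 2.93% a C/EBP-ATF match, 9.76% TATAAA, 2.44% the cyclic AMP element and 0.488% a CArG box. Their median G and C content was 59.2%, against 51.2% for all promoters. The set of all promoters was not limited to genes on the array, as the solute carrier set was, so the sets are unlike. A match is a description of letters and not a binding site, and no binding data were used.

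Amino acid carriers feed protein synthesis, which a growing myocyte needs, and fall into sodium-driven uptake carriers, exchangers, and carriers of arginine and lysine. Of 32 on the array, 16 were measured for PAMH against unstimulated, with 2 higher, 3 lower and a median log2 ratio of -0.09. For phenylephrine 15 were measured, with 3 higher, 1 lower and a median of 0.18. Without scaling these medians were -0.24 with PAMH and 0.05 with phenylephrine, and after quantile normalization -0.25 with PAMH and 0.09 with phenylephrine. The shares of all measured genes were 9.33% higher and 4.17% lower with PAMH, and 8.91% higher and 4.55% lower with phenylephrine. Beside Slc38a1, the glutamate and aspartate carrier Slc1a3 was higher, with an intensity of 743 with PAMH, 715 with phenylephrine and 394 in unstimulated cells (1.89-fold higher with PAMH and 1.81-fold higher with phenylephrine). Both other probe sets of Slc1a3 lay on the same side of 0, at log2 ratios of 0.69 and 0.73 with PAMH and 0.54 and 0.68 with phenylephrine. Slc1a5, of the same family but an exchanger that takes up glutamine and other neutral amino acids, went the other way. Its intensity was 171 with PAMH, 196 with phenylephrine and 324 in unstimulated cells, 1.89-fold lower with PAMH and 1.66-fold lower with phenylephrine. Slc1a3 and Slc1a5 kept to their sides of 1.5-fold under all the alternatives.

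The other measured members of the Slc38 family had smaller ratios than Slc38a1 or lay below unstimulated cells. Slc38a2, the close relative known to be induced by amino acid shortage, had an intensity of 2254 with PAMH, 2375 with phenylephrine and 2094 in unstimulated cells, within 1.5-fold in each comparison, and its log2 ratio with PAMH was 0.11, but -0.23 after quantile normalization and -0.20 after cyclic loess. Slc38a4 was 1.6-fold higher with phenylephrine (207 against 129 in unstimulated cells) and had 156 with PAMH, a log2 ratio of 0.27. Its phenylephrine log2 ratio was 0.55 without scaling and 0.52 with an offset of 50 added to each intensity, both short of 1.5-fold. Slc38a5, a glutamine carrier that exchanges protons, had 81.3 with PAMH, 129 with phenylephrine and 129.8 in unstimulated cells. It was 1.6-fold lower with PAMH, at a level close to the floor, and its log2 ratio was -0.45 with the offset. Slc38a10 had log2 ratios of -0.50 with PAMH and -0.21 with phenylephrine, and Slc38a6 had 115 with PAMH, 48.6 with phenylephrine and 80.4 in unstimulated cells, below the floor with phenylephrine and at a log2 ratio of 0.52 with PAMH. The arginine carrier Slc7a3 had 147 with PAMH, 317 with phenylephrine and 223 in unstimulated cells, with the treated arrays on opposite sides of the unstimulated one. It was 1.52-fold lower with PAMH (log2 -0.48 with the offset) and 1.42-fold higher with phenylephrine, which is short of 1.5-fold. Its paralogue Slc7a1, the widespread arginine carrier, had 511 with PAMH, 551 with phenylephrine and 417 in unstimulated cells by its brightest probe set, while a second one had log2 ratios of 0.66 with PAMH and 0.89 with phenylephrine, past 1.5-fold.

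The exchangers for large neutral amino acids differed less. Slc3a2, the heavy chain that carries several exchangers to the surface, had an intensity of 883 with PAMH, 1034 with phenylephrine and 961 in unstimulated cells. Slc7a5, its leucine-carrying partner, had 242 with PAMH, 241 with phenylephrine and 250.4 in unstimulated cells, so all 3 arrays lay within 1.5-fold for both subunits. The glycine carrier Slc6a9 had log2 ratios of 0.18 with PAMH and 0.13 with phenylephrine. The 14 amino acid carriers below the floor on all arrays included the glutamate carriers Slc1a1, Slc1a2 and Slc1a6.

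**Figure D2:**
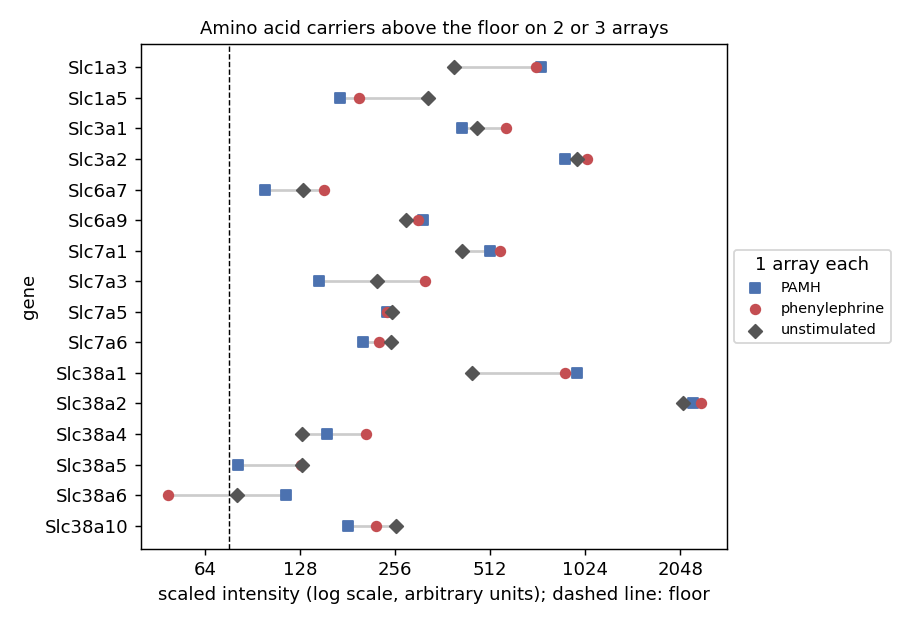
Scaled intensity (log scale, arbitrary units) of the 16 amino acid carriers above the floor (dashed line) on 2 or 3 arrays, 1 array per condition. Slc1a3 and Slc38a1 have PAMH and phenylephrine right of unstimulated, Slc1a5 has both left of it, and for Slc7a3 the 3 arrays are spread with PAMH lowest and phenylephrine highest.

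Of a companion list on the amino acid stress response and amino acid use, 14 genes were on the array and 12 were measured. With PAMH none was higher and 4 were lower, and with phenylephrine 1 was higher and 2 lower. Over all genes measured, 9.33% were higher and 4.17% lower with PAMH, and 8.91% higher and 4.55% lower with phenylephrine. The companion lists were chosen with earlier results of these data known, and none of them was run under the other scalings. The pseudokinase Trib3 had an intensity of 160.5 with PAMH, 220.3 with phenylephrine and 342 in unstimulated cells, 2.13-fold lower with PAMH and 1.55-fold lower with phenylephrine. Of the serine pathway enzymes, Psat1 had 419.8 with PAMH, 473 with phenylephrine and 781 in unstimulated cells and was 1.86-fold lower with PAMH and 1.65-fold lower with phenylephrine. Phgdh, the first enzyme of that pathway, had 246 with PAMH, 439.8 with phenylephrine and 492 in unstimulated cells, lower with PAMH (2.0-fold) but with a log2 ratio of only -0.16 with phenylephrine. The mitochondrial enzyme Shmt2, which turns serine into glycine, had 302 with PAMH, 601 with phenylephrine and 491 in unstimulated cells, again lower with PAMH (1.63-fold) and at a log2 ratio of 0.29 with phenylephrine. The lipoprotein receptor Vldlr was 2.26-fold higher with phenylephrine and at a log2 ratio of 0.58 with PAMH, just short of 1.5-fold. Atf4, the transcription factor of the response, had log2 ratios of 0.17 with PAMH and 0.32 with phenylephrine, and its target Asns, asparagine synthetase, 0.04 with PAMH and 0.26 with phenylephrine. Fibroblast markers were lower with PAMH in the same arrays (5 of 7), and their part was not tested.

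Metal carriers were the class most often above the floor. They comprise the importers of iron, copper and zinc into the cytosol, the Slc30 proteins that move zinc out of it, the magnesium carriers Slc41, the iron exporter Slc40a1 and the heme carrier Slc48a1. Of 25, 21 were measured for PAMH, with 1 higher and none lower and a median log2 ratio of 0.15, which was -0.01 without scaling. For phenylephrine 22 were measured, with 2 higher, none lower and a median of 0.18, which was 0.06 without scaling. All measured genes had 9.33% higher and 4.17% lower with PAMH, and 8.91% higher and 4.55% lower with phenylephrine. Slc11a2, which carries ferrous iron out of endosomes and into the cell, had an intensity of 398 with PAMH, 428 with phenylephrine and 261 in unstimulated cells. It was 1.53-fold higher with PAMH and 1.64-fold higher with phenylephrine, but a second probe set had log2 ratios of 0.10 with PAMH and 0.13 with phenylephrine. The mean over both probe sets, 0.35 with PAMH and 0.42 with phenylephrine, fell short of 1.5-fold, and the PAMH ratio was past it under 3 of 9 alternatives. Slc41a1, which moves magnesium out of cells, had 250.3 with PAMH, 253 with phenylephrine and 167 in unstimulated cells, 1.51-fold higher with phenylephrine and at a log2 ratio of 0.58 with PAMH, just inside the threshold. The phenylephrine log2 ratio was 0.47 without scaling, 0.55 after scaling on percentile 75, 0.58 after cyclic loess and 0.48 with the offset, so it lay on the threshold.

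Zinc carriers lay on both sides of unstimulated cells in the scaled values, with more above than below for either compound and none past 1.5-fold. Slc39a7, which releases zinc from the endoplasmic reticulum, had an intensity of 603 with PAMH, 564 with phenylephrine and 573 in unstimulated cells, and Slc39a1, a surface importer, 447 with PAMH, 421 with phenylephrine and 459 in unstimulated cells, so both were level across the arrays. Slc39a13 had log2 ratios of 0.34 with PAMH and 0.24 with phenylephrine, and Slc39a14, which also takes up iron, of -0.38 with PAMH and -0.46 with phenylephrine. Among the exporters from the cytosol, Slc30a5 had 154 with PAMH, 229 with phenylephrine and 223 in unstimulated cells, low on the PAMH array alone, with a log2 ratio of -0.53 with PAMH. Slc30a1, the plasma membrane exporter that cells induce when zinc is high, had 0.27 with PAMH and 0.28 with phenylephrine as log2 ratios. Slc40a1 had 0.38 with PAMH and 0.27 with phenylephrine by its brightest probe set and -0.35 with PAMH and -0.06 with phenylephrine by another, so no direction can be given for the iron exporter. The copper importer Slc31a1 likewise had log2 ratios of -0.19 with PAMH and -0.10 with phenylephrine by its brightest probe set, and a dimmer one had 0.47 with PAMH and 0.07 with phenylephrine, so no direction is given for it.

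**Figure D3:**
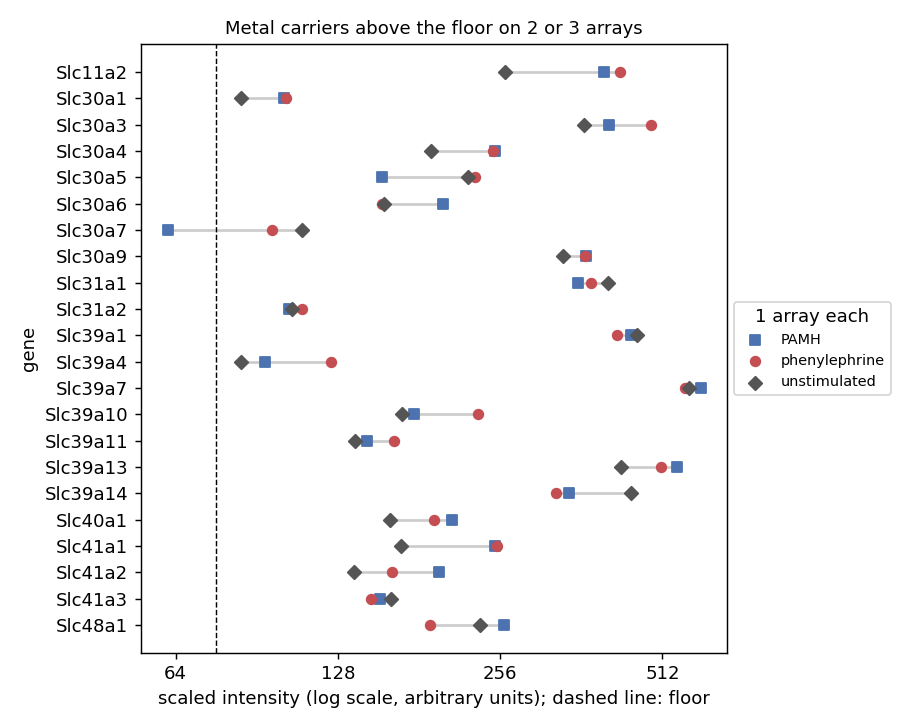
Scaled intensity (log scale, arbitrary units) of the 22 metal carriers above the floor (dashed line) on 2 or 3 arrays, 1 array per condition. Slc11a2 and Slc41a1 have PAMH and phenylephrine close together and right of unstimulated, and Slc30a5 has PAMH left of the other arrays.

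Beside these carriers, 8 of 13 genes of iron, zinc and copper handling were measured against unstimulated cells. With PAMH 1 was higher and 1 lower, and with phenylephrine 2 were higher and 1 lower. The shares over all genes were 9.33% higher and 4.17% lower with PAMH, and 8.91% higher and 4.55% lower with phenylephrine. The transferrin receptor Tfrc, which delivers iron to the endosomes where Slc11a2 acts, had an intensity of 3352 with PAMH, 2969 with phenylephrine and 1357 in unstimulated cells, 2.47-fold higher with PAMH and 2.19-fold higher with phenylephrine. Hmox1, which breaks down heme, had 222 with PAMH, 219 with phenylephrine and 349 in unstimulated cells, 1.57-fold lower with PAMH and 1.59-fold lower with phenylephrine. The iron regulatory protein Ireb2 was 1.59-fold higher with phenylephrine and had a log2 ratio of -0.12 with PAMH.

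Most Slc25 carriers lie in the inner mitochondrial membrane and supply the matrix with ADP, phosphate, substrates and cofactors. The mitochondrial class used here also holds Slc25a17, a carrier of peroxisomes. Of 30, 20 were measured with each compound. With PAMH 1 was higher and none lower, where 9.33% of all measured genes were higher and 4.17% lower. A log2 ratio above 0 was found for 14 of 20, and for 4006 of 6552 among all genes measured. The median was 0.28, against 0.10 for all genes. After quantile normalization this median was 0.08 and after cyclic loess 0.09. With phenylephrine none was higher or lower, where 8.91% of all measured genes were higher and 4.55% lower. The phenylephrine median of 0.07 turned to -0.06 without scaling, -0.03 after quantile normalization and -0.04 after cyclic loess. The phosphate carrier Slc25a3 had an intensity of 10460.4 with PAMH, 9572 with phenylephrine and 6646 in unstimulated cells, 1.57-fold higher with PAMH, and at a log2 ratio of 0.53 with phenylephrine. Its PAMH log2 ratio was 0.50 without scaling, 0.25 after quantile normalization and 0.18 after cyclic loess, each short of 1.5-fold. The ADP/ATP carriers are Slc25a4, the form typical of heart and muscle, and Slc25a5, the widespread form. The intensity was 10845 with PAMH, 9236 with phenylephrine and 7911 in unstimulated cells for Slc25a4. For Slc25a5 it was 6669 with PAMH, 5498 with phenylephrine and 4668 in unstimulated cells. Slc25a4 had log2 ratios of 0.46 with PAMH and 0.22 with phenylephrine, which became -0.04 with PAMH and -0.12 with phenylephrine after quantile normalization and -0.03 with PAMH and -0.15 with phenylephrine after cyclic loess, so its direction depends on the scaling. Slc25a5 had 0.51 with PAMH and 0.24 with phenylephrine, and after quantile normalization 0.09 with PAMH and -0.09 with phenylephrine.

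The other Slc25 carriers were within 1.5-fold in each comparison in which they were measured. The aspartate/glutamate carriers of the malate-aspartate shuttle had log2 ratios of 0.24 with PAMH and -0.16 with phenylephrine for Slc25a12 and 0.25 with PAMH and 0.34 with phenylephrine for Slc25a13, and their partner, the oxoglutarate carrier Slc25a11, had 0.31 with PAMH and -0.05 with phenylephrine. The citrate carrier Slc25a1 had 0.44 with PAMH and 0.32 with phenylephrine. Slc25a20, which brings acylcarnitines in for fatty acid oxidation, had an intensity of 234 with PAMH, 328 with phenylephrine and 319 in unstimulated cells, low on the PAMH array alone (log2 -0.44, against 0.04 with phenylephrine). Slc25a38, which carries glycine for heme synthesis, had 166 with PAMH, 116 with phenylephrine and 117 in unstimulated cells, high on the PAMH array alone.

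**Figure D4:**
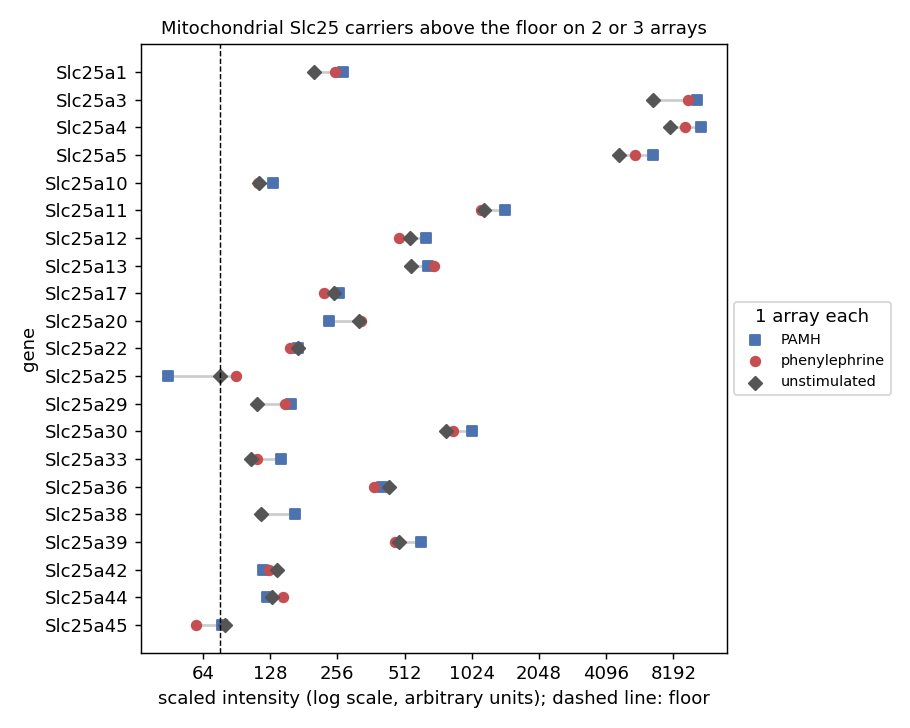
Scaled intensity (log scale, arbitrary units) of the 21 Slc25 carriers above the floor (dashed line) on 2 or 3 arrays, 1 array per condition. PAMH is the rightmost marker for Slc25a3, Slc25a4, Slc25a5 and Slc25a11, and the leftmost for Slc25a20.

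Mitochondrial transport proteins whose symbols lie outside the Slc series had 2 of 13 measured members higher with PAMH and 4 of 13 with phenylephrine, and none lower. Among all genes, 9.33% were higher with PAMH and 8.91% with phenylephrine. The uncoupling protein Ucp2, of the Slc25 family by sequence, had an intensity of 426 with PAMH, 506 with phenylephrine and 249.6 in unstimulated cells, 1.71-fold higher with PAMH and 2.03-fold higher with phenylephrine. Mpc1, a subunit of the pyruvate carrier, had 3857 with PAMH, 3701 with phenylephrine and 2387 in unstimulated cells, 1.62-fold higher with PAMH and 1.55-fold higher with phenylephrine, and the other subunit, Mpc2, had log2 ratios of 0.36 with PAMH and 0.37 with phenylephrine. The import receptor Tomm20 was 1.69-fold higher and Ucp3 1.5-fold higher with phenylephrine. With PAMH the log2 ratio was 0.52 for Tomm20 and 0.57 for Ucp3. These ratios were not run under the other scalings, which moved those of the bright Slc25 carriers above.

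Nucleoside carriers help to set the adenosine outside cardiac cells, a signal of energy shortage. Of 6, only Slc29a1 was above the floor on all arrays. This equilibrative carrier, which takes up adenosine, had an intensity of 131 with PAMH, 150.3 with phenylephrine and 181 in unstimulated cells, with log2 ratios of -0.46 with PAMH and -0.27 with phenylephrine, lower on both treated arrays but within 1.5-fold. Slc29a2, of the same family, had 61.8 with PAMH, 125 with phenylephrine and 89.1 in unstimulated cells, below the floor with PAMH. Slc29a3 was above it only with phenylephrine, and the sodium-driven Slc28a1, Slc28a2 and Slc28a3 were below it on all arrays. Of 12 genes of nucleoside and purine metabolism, 8 were measured against unstimulated cells. With PAMH 2 were higher and 1 lower, and with phenylephrine 3 were higher and 1 lower. All genes had shares of 9.33% higher and 4.17% lower with PAMH, and 8.91% higher and 4.55% lower with phenylephrine. Adk, which phosphorylates adenosine, had 1745 with PAMH, 1585 with phenylephrine and 1013 in unstimulated cells, 1.72-fold higher with PAMH and 1.56-fold higher with phenylephrine. The purine salvage enzyme Hprt1 had 1405 with PAMH, 1531 with phenylephrine and 868 in unstimulated cells, 1.62-fold higher with PAMH and 1.76-fold higher with phenylephrine. Ampd3, an AMP deaminase, was 1.97-fold lower with PAMH and 1.76-fold lower with phenylephrine. The uridine-cytidine kinase Uck2 was 1.88-fold higher with phenylephrine, at a log2 ratio of 0.26 with PAMH. This list was not run under the other scalings. Among the bright solute carriers, Slc38a2 went from a log2 ratio of 0.11 to -0.23 with PAMH after quantile normalization.

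Carriers of inorganic ions set cell volume, pH and phosphate supply. Of 34, 15 were measured for PAMH, with 3 higher and 2 lower and a median log2 ratio of 0.17, and 14 for phenylephrine, with 3 higher, none lower and a median of 0.22. Without scaling these medians were 0.02 with PAMH and 0.09 with phenylephrine. The shares of all measured genes were 9.33% higher and 4.17% lower with PAMH, and 8.91% higher and 4.55% lower with phenylephrine. Beside Slc12a7, Slc20a1, the sodium-phosphate cotransporter of most cells, had an intensity of 782 with PAMH, 942 with phenylephrine and 486 in unstimulated cells. It was 1.94-fold higher with phenylephrine, and stayed past 1.5-fold under every alternative that measured it. It was 1.61-fold higher with PAMH, where the log2 ratio was 0.53 without scaling, 0.55 after quantile normalization and 0.51 after cyclic loess. Its paralogue Slc20a2 had log2 ratios of -0.13 with PAMH and -0.03 with phenylephrine. Slc4a3, the chloride-bicarbonate exchanger characteristic of heart and brain, which acidifies the cell, had 429 with PAMH, 432 with phenylephrine and 252 in unstimulated cells, 1.7-fold higher with PAMH and 1.72-fold higher with phenylephrine, and stayed past 1.5-fold under every alternative that measured it. The widespread exchanger Slc4a2 had 0.17 with PAMH and 0.39 with phenylephrine as log2 ratios. Slc4a1, the exchanger of red cells, had 184 with PAMH, 155 with phenylephrine and 132 in unstimulated cells by its brightest probe set, while a second one was below the floor on all arrays. Of the 3 erythroid markers on the array, Slc4a1 was above the floor on all arrays, Alas2 with phenylephrine alone (61.2 with PAMH, 111 with phenylephrine and 45.2 in unstimulated cells) and the globin Hbb on none, and the part of erythroid cells in the Slc4a1 values was not tested.

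Within the Slc12 family, Slc12a4, another potassium-chloride cotransporter, had an intensity of 232 with PAMH, 236 with phenylephrine and 159 in unstimulated cells, with log2 ratios of 0.55 with PAMH and 0.57 with phenylephrine, just short of 1.5-fold. Slc12a2, which brings sodium, potassium and chloride in, had 246 with PAMH, 289 with phenylephrine and 249.9 in unstimulated cells, so it was level between PAMH and unstimulated cells. Slc12a9, of less certain role, was 1.6-fold lower with PAMH (87.2 against 139 in unstimulated cells). Slc24a3, a sodium-calcium-potassium exchanger, was 1.52-fold lower with PAMH (80.6 against 122 in unstimulated cells). Both were near the floor, and neither passed 1.5-fold with the offset, at -0.46 for Slc12a9 and -0.40 for Slc24a3. A second probe set of Slc24a3 had log2 ratios of -0.01 with PAMH and -0.12 with phenylephrine.

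The pumps that build the gradients these carriers use had 6 measured members of 7, of which 2 were higher with either compound and none lower. Among all genes, 9.33% were higher with PAMH and 8.91% with phenylephrine. The sodium pump subunit Atp1b1 had an intensity of 5382 with PAMH, 5324 with phenylephrine and 2083 in unstimulated cells, 2.58-fold higher with PAMH and 2.56-fold higher with phenylephrine. Fxyd1, which regulates the pump in heart, had 3543 with PAMH, 3491 with phenylephrine and 1706 in unstimulated cells, 2.08-fold higher with PAMH and 2.05-fold higher with phenylephrine. The related subunit Atp1b3 had log2 ratios of 0.36 with PAMH and 0.28 with phenylephrine.

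Creatine, taurine and fuel carriers bear on the energy supply of a myocyte. Slc6a8, which takes creatine up, had an intensity of 474 with PAMH, 271 with phenylephrine and 472 in unstimulated cells, low on the phenylephrine array alone (1.74-fold lower). A second probe set did not show this, with log2 ratios of 0.39 with PAMH and 0.06 with phenylephrine, so the direction for Slc6a8 is not settled. The efflux carrier Slc16a12, described above, was lower on both treated arrays. Slc6a6, which takes up taurine, the osmolyte of heart muscle, had 774 with PAMH, 1161 with phenylephrine and 635 in unstimulated cells, high on the phenylephrine array (1.83-fold higher), and its second probe set gave log2 ratios of 0.21 with PAMH and 0.83 with phenylephrine.

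Of 21 carriers of sugars, monocarboxylates and fatty acids, 10 were measured for PAMH, with none higher and 2 lower, and 11 for phenylephrine, with 1 higher and 2 lower. All measured genes had 9.33% higher and 4.17% lower with PAMH, and 8.91% higher and 4.55% lower with phenylephrine. Slc37a4, which carries glucose 6-phosphate into the endoplasmic reticulum, had an intensity of 154 with PAMH, 146 with phenylephrine and 247 in unstimulated cells, 1.6-fold lower with PAMH and 1.69-fold lower with phenylephrine. The PAMH log2 ratio was -0.54 with the offset. Slc27a4, a long-chain fatty acid importer and acyl-CoA synthetase, had 278 with PAMH, 389 with phenylephrine and 245 in unstimulated cells, 1.59-fold higher with phenylephrine, although 0.54 on the log2 scale without scaling and 0.57 with the offset. Its relative Slc27a3 had log2 ratios of -0.54 with PAMH and -0.47 with phenylephrine. Slc16a1, the lactate and pyruvate carrier of many tissues, had 1725 with PAMH, 1500.4 with phenylephrine and 1468 in unstimulated cells, within 1.5-fold, and its PAMH log2 ratio of 0.23 became -0.08 after quantile normalization. Slc16a6 was at 109 with PAMH and 135 with phenylephrine, and at 31.05, below the floor, in unstimulated cells, so it has no ratio against them. The glucose carrier Slc2a3 had log2 ratios of 0.19 with PAMH and 0.34 with phenylephrine.

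Beside Slc44a2, the second choline carrier Slc44a1 had an intensity of 184 with PAMH, 95.5 with phenylephrine and 152 in unstimulated cells, 1.59-fold lower with phenylephrine. A further probe set had log2 ratios of -0.35 with PAMH and -0.38 with phenylephrine, lower on both but short of 1.5-fold. Of the 13 carriers of vitamins, choline and acetyl-CoA, 7 were measured, with none higher with either compound, 1 lower with PAMH and 2 with phenylephrine. The shares of all measured genes were 9.33% higher and 4.17% lower with PAMH, and 8.91% higher and 4.55% lower with phenylephrine. Slc33a1, which carries acetyl-CoA into the endoplasmic reticulum, had log2 ratios of 0.40 with PAMH and 0.40 with phenylephrine, and the vitamin C carrier Slc23a2 of 0.20 with PAMH and 0.18 with phenylephrine.

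Carriers of organic anions, cations and drugs were mostly below the floor. Slc22a17, a receptor for the iron-binding protein lipocalin-2, had an intensity of 507 with PAMH, 373 with phenylephrine and 689 in unstimulated cells. It was 1.85-fold lower with phenylephrine, past 1.5-fold in all the alternatives too, and at a log2 ratio of -0.44 with PAMH. Slc22a8, an organic anion transporter known from kidney, had 139 with PAMH, 143 with phenylephrine and 82.5 in unstimulated cells, 1.68-fold higher with PAMH and 1.73-fold higher with phenylephrine, from an unstimulated level near the floor. With the offset its log2 ratios were 0.51 with PAMH and 0.54 with phenylephrine, short of 1.5-fold. Slco3a1, of the organic anion polypeptides, had log2 ratios of 0.28 with PAMH and 0.34 with phenylephrine, and 0.45 with PAMH and 0.72 with phenylephrine by a second probe set. Its relative Slco1a4 had 0.53 with PAMH and 0.13 with phenylephrine by its brightest probe set. The carnitine carrier Slc22a5, which fatty acid oxidation in heart depends on, had 0.20 with PAMH and 0.06 with phenylephrine. Of the nucleotide sugar carriers, Slc35a1 had log2 ratios of -0.22 with PAMH and -0.14 with phenylephrine by its brightest probe set. Slc35a4 had 0.38 with PAMH and 0.45 with phenylephrine. In the class of other carriers, Slc15a4 had 0.37 with PAMH and 0.43 with phenylephrine. Slc49a4 had -0.43 with PAMH and -0.55 with phenylephrine. Slc14a2 had 0.15 with PAMH and -0.04 with phenylephrine by its brightest probe set.

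Because the labels name 5-hydroxytryptamine, the carriers of that amine were looked up after the values were known. The serotonin uptake carrier Slc6a4 had an intensity of 84.6 with PAMH, 47.4 with phenylephrine and 59.1 in unstimulated cells, above the floor with PAMH alone. The vesicular amine carrier Slc18a2 had 89.0 with PAMH, 96.6 with phenylephrine and 88.0 in unstimulated cells, level across the arrays and near the floor. The organic cation carrier Slc22a3 and the noradrenaline carrier Slc6a2 were below the floor on all arrays.

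Between the compounds directly, PAMH was at least 1.5-fold above phenylephrine for 3 of 108 measured solute carriers (2.78%) and below it for 3 (2.78%). Over all 6595 genes measured, 1.93% were higher and 2.67% lower, so the shares were near the background. Without scaling and with each of the other scalings, 3 were higher and 5 lower, for which no share over all genes is given. The higher ones were Slc44a1 (1.93-fold), Slc6a8 (1.75-fold) and Slc4a4 (1.66-fold). Of these the sodium-bicarbonate cotransporter Slc4a4, which brings base into the myocyte, had an intensity of 321 with PAMH, 194 with phenylephrine and 246 in unstimulated cells, and its second probe set a log2 ratio of 0.62 between the compounds. A second probe set had a log2 ratio between the compounds of only 0.03 for Slc44a1 and 0.325 for Slc6a8. The mean log2 ratio over probe sets was 0.49 for Slc44a1 and 0.57 for Slc6a8, short of 1.5-fold. With the median scaling, the lower ones were amino acid carriers: Slc7a3 (2.16-fold), Slc38a5 (1.58-fold) and the proline carrier Slc6a7 (1.53-fold). Slc6a7 had 99.2 with PAMH against 152 with phenylephrine. Slc7a3 was past 2-fold, where 0.364% of all genes were. With the offset Slc38a5 was at -0.45 and Slc6a7 at -0.44. The taurine carrier Slc6a6, at a log2 ratio of -0.58, and the zinc carrier Slc30a5, at -0.57, were just inside the threshold. A second probe set of Slc6a6 was past it, at -0.62. The lower group is thus limited to amino acid carriers only by a narrow margin.

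By class, the amino acid carriers had a median log2 ratio between the compounds of -0.19, with 11 of 15 below 0. The mitochondrial carriers had one of 0.22, with 15 of 19 above 0. The median of all genes was 0.04, with 3740 of 6595 above 0 and 2855 below. The amino acid median lay between -0.22 and -0.20 under the other scalings. The mitochondrial median was 0.09 after quantile normalization and 0.12 after cyclic loess. The metal carriers had a median of 0.01. The ion carriers had one of -0.09, also with 11 of 15 below 0, so that split was not particular to the amino acid carriers. Of the amino acid stress list, 3 of 12 were lower with PAMH than with phenylephrine and none higher, where 2.67% of all genes were lower. These were Shmt2 (1.99-fold), Phgdh (1.79-fold) and Vldlr (1.51-fold). Among the metal-handling genes, the metallothionein Mt2A was 1.63-fold higher and Ireb2 1.72-fold lower with PAMH than with phenylephrine. Fibroblast markers were lower with PAMH in 2 of 7 (Postn and Col3a1), smooth muscle markers in 1 of 5 (Myh11), and myocyte markers in none of 7. The median log2 ratio was -0.36 for the fibroblast markers, -0.36 for the smooth muscle markers and 0.19 for the myocyte markers, and the part of cell makeup in these class medians was not tested.

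**Figure D5:**
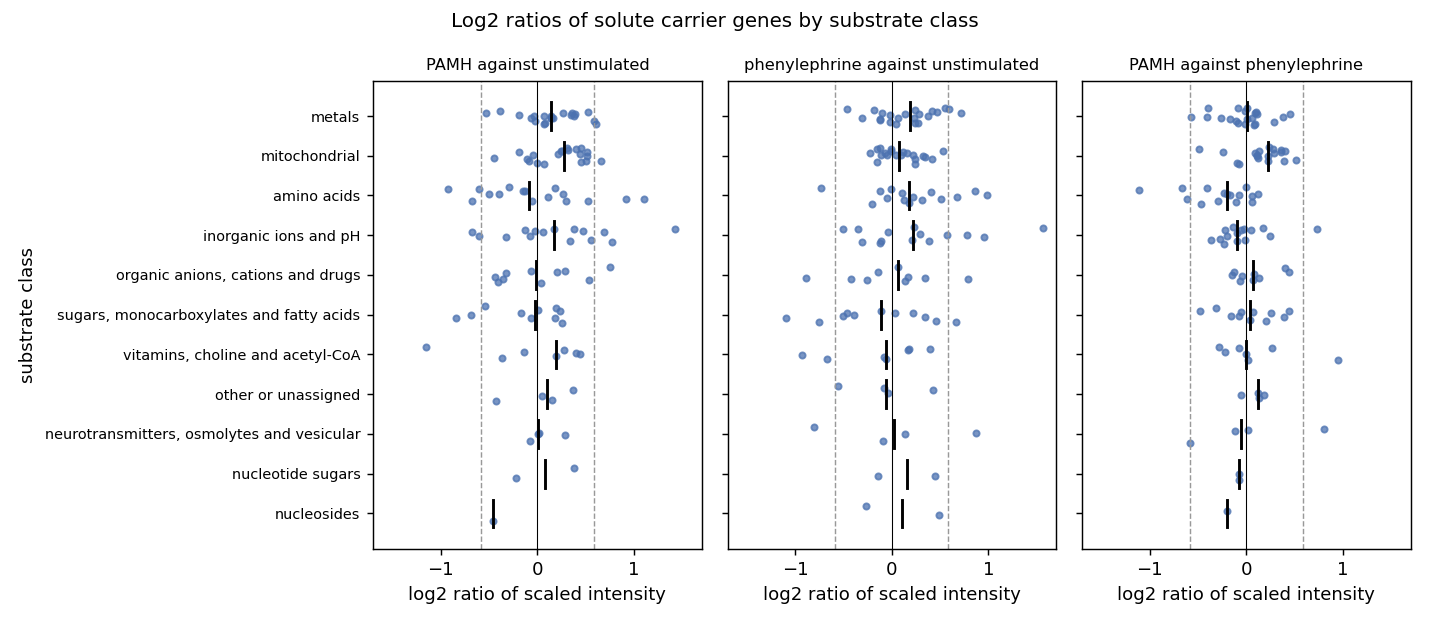
Log2 ratio of scaled intensity of each measured solute carrier by substrate class, in 3 panels, for PAMH against unstimulated, phenylephrine against unstimulated and PAMH against phenylephrine, with a bar at each class median and dashed lines at 1.5-fold. In the panel of PAMH against phenylephrine, the amino acid bar is at -0.19 and the mitochondrial bar at 0.22.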

How the data were processed

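Total RNA of 3 cultures was measured on 1 Affymetrix rat array each. The deposited values are linear intensities, 1 for each of 15923 probe sets, in a table the submitters made. Which software made them is not given in the sources used here. With 2% trimmed at each end, the mean intensity was 250.1 on every array. The deposited medians were 105.9 with PAMH, 107.9 with phenylephrine and 117.8 in unstimulated cells, and any other centring or scaling is unknown. Detection calls were not used here.

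Of 15923 probe sets, 57 were controls, 312 carried several symbols and 2771 none. Probe sets with several symbols were left out, among them 2 with a solute carrier symbol, and 43 solute carrier genes had several probe sets. Each array was multiplied by 1 factor (1.04 for PAMH, 1.02 for phenylephrine, 0.938 for unstimulated) to equal medians over non-control probe sets, which moved the log2 ratio by 0.15 for PAMH and 0.13 for phenylephrine against the deposited values. The floor was percentile 40 of all scaled values (59.9% of probe sets above it with PAMH, 60.1% with phenylephrine and 60.0% in unstimulated cells), and a gene below it on 1 array and above percentile 75 on the other would have been given a bound, of which there were 0. Genes past 1.5-fold in any comparison and up to 4 companion genes per list and direction are named. In each class, up to 3 members with the highest mean signal are named, of those above the floor on all arrays. Relatives and second probe sets of the named genes were added after their values were seen. The members, classes and companion lists were chosen with earlier results of these data known. The number of arrays limits the precision. Promoters came from a RefSeq table on GRCr8. The ratio step was tested on simulated arrays. Python 3.11.15, numpy 2.4.6, pandas 2.3.3 and matplotlib 3.10.9 were used, and quantile and cyclic loess normalization came from limma 3.58.1 in R 4.3.3. Alternatives changed the scaling, an offset, the floor, the choice of probe set and the members, and the companion and marker lists were not run under them.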

Additional observations from a re-analysis of the deposited data

How the results depend on the processing

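No paired analysis was possible because each condition had 1 array. The scaling, the floor and the choice of probe set moved the counts of solute carriers past 1.5-fold as follows. For PAMH against unstimulated, the 8 higher became 5 without scaling, 5 after quantile normalization, 5 after cyclic loess, 33 with no floor and 5 over genes with 1 probe set, and the 8 lower became 15 without scaling, 3 with an offset of 50, 5 with the floor at percentile 50 and 39 with no floor. For phenylephrine against unstimulated, the 11 higher became 7 without scaling, 7 with the offset, 37 with no floor and 7 over genes with 1 probe set, and the 7 lower became 12 without scaling, 28 with no floor and 4 over genes with 1 probe set. For PAMH against phenylephrine, the 3 higher became 22 with no floor, 1 by the mean over probe sets and 0 over genes with 1 probe set. The 3 lower became 5 without scaling, 5 with scaling on percentile 75, 5 after quantile normalization, 5 after cyclic loess, 1 with the offset, 6 with the floor at percentile 30, 1 with the floor at percentile 50 and 37 with no floor. The floor and the single probe set restriction change how many genes are measured, and for the other moves the cause was not tested. No share over all genes is given beside these alternative counts. The median log2 ratios of all solute carriers turned to -0.01 with PAMH and -0.03 with phenylephrine without scaling. Of the genes past 1.5-fold, 7 of 16 with PAMH, 11 of 18 with phenylephrine and 2 of 6 between the compounds stayed past it under every alternative that measured them, and none past 1.5-fold turned round. Ratios of genes near the floor are limited by signal over background.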
